A study of Mus musculus with 8 samples.

Results

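The chemokines examined here were the CXCR3 ligands Cxcl9, Cxcl10 and Cxcl11 with their receptor Cxcr3, the T cell attracting chemokine Ccl5, and the pair of Cxcl16 and its receptor Cxcr6. These 7 genes were chosen by name among the 18194 mouse genes with a probe set of their own on the Affymetrix MG-430_2.0 array, and each was read from the probe set with the highest mean signal. MOPC cells, a murine oropharyngeal carcinoma line, were injected s.c. into Tlr3/7/9-/- mice (KO) or C57BL/6 wild-type (WT) mice, and total RNA of the whole tumour was hybridised. There were 2 arrays each for KO day 6, WT day 6, KO day 4 and WT day 4, 8 arrays in all. The KO hosts lacked TLR3, TLR7 and TLR9, the endosomal receptors for nucleic acids, in all their cells, whereas the injected MOPC cells were the same in both hosts. For the day 6 tumours, 2000000 cells were injected into mice aged 8 to 16 weeks, and no source used here gives the dose and age for the day 4 tumours in particular. The 4 day 6 arrays came from 4 mice, and whether the day 4 arrays came from separate mice was not given in the sources used here, so that the p-values below measure the spread between these arrays.

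CXCL9, CXCL10 and CXCL11 are small secreted proteins that attract activated T cells and natural killer (NK) cells through a shared receptor, CXCR3, and IFN-γ is their classical inducer. CXCL10 also responds to type I interferon and to NF-κB. CCL5 attracts T cells, monocytes and eosinophils, among others, through receptors that include CCR1 and CCR3, and CXCL16 is a membrane-bound or shed chemokine of macrophages, dendritic cells and endothelium that binds CXCR6 on activated T cells and NKT cells.

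The ligand genes lie side by side on chromosome 5, in the order Cxcl9, Art3, Cxcl10, Cxcl11 and Nup54. RefSeq annotates Cxcl11 of the C57BL/6J reference as a transcribed pseudogene rather than a protein-coding gene. Its array signal is therefore read here as a transcript level only and not as a measure of CXCL11 protein, which was not examined. Cxcr3 lies on chromosome X, Ccl5 and Cxcl16 lie on chromosome 11, and Cxcr6 lies on chromosome 9 next to the chemokine receptor gene Xcr1. RefSeq promoters were found for 4 of the 7 genes. Those of Cxcl9 and Cxcl10, which had the highest fold changes of the 7 between the days, are shown as the 250 bases before the start of transcription (GRCm38.p6, minus strand, chr5:92328080-92328329 and chr5:92348890-92349139), written 5′ to 3′ and ending at the base before the start.
Cxcl9: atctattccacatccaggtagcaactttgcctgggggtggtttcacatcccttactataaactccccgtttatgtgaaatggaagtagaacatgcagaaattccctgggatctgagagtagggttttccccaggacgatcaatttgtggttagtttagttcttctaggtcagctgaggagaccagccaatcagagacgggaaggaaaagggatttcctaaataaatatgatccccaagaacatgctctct
Cxcl10: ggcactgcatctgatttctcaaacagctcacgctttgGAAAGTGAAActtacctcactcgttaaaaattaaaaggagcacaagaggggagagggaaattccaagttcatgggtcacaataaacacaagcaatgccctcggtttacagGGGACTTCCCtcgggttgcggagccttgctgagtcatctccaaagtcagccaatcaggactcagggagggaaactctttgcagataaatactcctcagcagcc
Capitals mark matches, on either strand, to the interferon-stimulated response element (ISRE, GAAA and GAAA with any 2 bases between), the gamma-activated site (GAS, TTCNNNGAA) or the κB motif (GGGA, any base, TT, any base and CC). The Cxcl10 window held an ISRE match, GAAAGTGAAA, whose first base was 213 bases before the start, and a κB match, GGGACTTCCC, at 103 bases. No match to these letters stood in the Cxcl9 window. Among 32851 promoter windows of the same length, 2.98% held the ISRE, 7.02% the GAS and 0.98% the κB motif. A match is a run of letters and was not tested as a binding site.

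The authors' scaling set the trimmed mean to 1000 on each of the 8 arrays, so that this value cannot show whether the arrays were comparable. Median signals were 133.2 to 143.7 on the day 6 arrays and 148.9 to 175.2 on the day 4 arrays, without overlap between the days. Tlr7 was at 10.8 to 80.1 in KO tumours, against 382.9 to 673.4 in WT tumours, and Tlr3 was at 224.0 to 427.2 in KO tumours, against 543.9 to 811.1 in WT tumours. Tlr9 was below the filter on low signals, higher in KO tumours at day 6 and overlapping at day 4, at 123.7 and 84.2 in KO day 6 tumours, against 20.8 and 58.5 in WT day 6 tumours, and at 128.5 and 102.2 in KO day 4 tumours, against 137.6 and 34.2 in WT day 4 tumours. Whether the probe sets of these genes lie in the deleted parts was not known. Xist was at 5579.1 to 7121.0 on the day 6 arrays and 44.6 to 142.1 on the day 4 arrays, and Y-linked Eif2s3y was at 10.2 to 33.0 on the day 6 arrays and 798.1 to 1176.7 on the day 4 arrays, so that the day and the sex of the tissue cannot be told apart. Summed signals of 8 skeletal muscle genes were 45110 in KO day 6 replicate 2, 18010 in KO day 4 replicate 2 and 133500 in WT day 4 replicate 2, against 1077 to 1268 in the other 5 arrays, and 8 cornified skin genes summed to 19580 in KO day 6 replicate 2, against 901.2 to 1313 elsewhere. Of 14 T cell genes measured, Cd3e, Cd4, Cd8b1, Cd5, Cd6 and Cd27 fell below the filter on low signals, while Thy1, which stromal cells also express, was at 3820.1 to 6164.3.

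Day 6 tumours were compared with day 4 tumours within each host, a contrast in which the day and the sex of the tissue cannot be told apart. Genes said to rise or fall between the days were higher or lower in day 6 than in day 4 tumours. In KO hosts, transcripts of all 3 CXCR3 ligands rose, 23.5-fold for Cxcl9, 12.2-fold for Cxcl10 and 5.86-fold for Cxcl11, and Cxcl16 rose 1.72-fold. In WT hosts Cxcl9 rose 11.4-fold, and the other chemokines with higher day 6 signals did not pass the test. Neither receptor moved with its ligand, since Cxcr3 and Cxcr6 had lower mean signals at day 6 than at day 4 in both hosts.

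Cxcl9, the ligand most closely tied to IFN-γ, had signals of 9171.2 and 2727.5 in KO day 6 tumours and of 173.5 and 224.0 in KO day 4 tumours. Its signals were 5013.0 and 1445.8 in WT day 6 tumours, against 131.5 and 366.2 in WT day 4 tumours. Every day 6 array was above every day 4 array, and replicate 1 gave the higher signal in both day 6 groups. The log2 fold change was 4.56 ± 0.71 (SE, n = 2 each; limma, adjusted p = 0.0211) in KO hosts and 3.51 ± 0.71 (adjusted p = 0.0305) in WT hosts. From the highest positive change downwards, Cxcl9 ranked 4 of 12976 genes in KO hosts and 3 of 12976 in WT hosts. A second Cxcl9 probe set gave log2 differences of 3.92 in KO hosts and 3.22 in WT hosts.

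Cxcl10 was at 7055.7 and 1408.9 in KO day 6 tumours, against 256.9 and 232.1 in KO day 4 tumours. In WT hosts it was at 3967.1 and 2636.4 at day 6 and at 777.6 and 619.2 at day 4. The KO arrays thus enclosed the WT arrays at day 6 and lay below them at day 4. The log2 fold change between the days was 3.61 ± 0.60 in KO hosts (SE, n = 2 each; limma, adjusted p = 0.0222) and 2.19 ± 0.60 in WT hosts (adjusted p = 0.0672), where the 4.58-fold difference did not pass the test. Cxcl10 ranked 12 in KO hosts and 23 in WT hosts among the same genes.

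Cxcl11 had lower signals, at 698.5 and 383.7 in KO day 6 tumours and at 78.2 and 72.2 in KO day 4 tumours. In WT hosts the signals were 530.2 and 294.9 at day 6 and 158.8 and 75.0 at day 4. The days did not overlap in either host, and the KO day 4 signals stood at the limit of 78.6 that the filter set for mean signals. The log2 fold change was 2.55 ± 0.43 (SE, n = 2 each; limma, adjusted p = 0.0230) in KO hosts and 1.71 ± 0.43 (adjusted p = 0.0568) in WT hosts. The second Cxcl11 probe set was dim, with 13.4 to 82.5 over the 8 arrays. Its days overlapped in both hosts, with log2 differences of 0.8 in KO hosts and -0.05 in WT hosts. With both probe sets averaged, the log2 change in KO hosts was 1.68 (limma, adjusted p = 0.0869).

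Cxcl16, the ligand of CXCR6, was at 1848.6 and 2023.8 in KO day 6 tumours, against 1194.3 and 1048.5 in KO day 4 tumours. WT tumours had 2858.0 and 2152.6 at day 6 and 1294.3 and 1720.0 at day 4. All day 6 signals were above all day 4 signals. The log2 fold change was 0.78 ± 0.19 (SE, n = 2 each; limma, adjusted p = 0.0488) in KO hosts and 0.73 ± 0.19 (adjusted p = 0.0604) in WT hosts. A second Cxcl16 probe set had 1550.7 and 1635.3 at KO day 6 and 856.1 and 713.9 at KO day 4. The call in KO hosts lay near the threshold and held in 9 of 21 alternatives. It was lost with quantile normalization (adjusted p = 0.0557), a pseudocount of 64 (0.0506) or no filter (0.0629), among others.

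Ccl5, a chemokine of activated T cells, NK cells and macrophages, differed little between the days. It was at 760.0 and 495.8 in KO day 6 tumours and at 405.3 and 620.4 in KO day 4 tumours. WT tumours had 1262.1 and 1129.9 at day 6 and 747.4 and 1293.2 at day 4. The days overlapped in both hosts, with log2 fold changes of 0.28 ± 0.31 (95% interval -0.44 to 1.0, adjusted p = 0.606, limma) in KO hosts and 0.28 ± 0.31 (-0.44 to 1.0, adjusted p = 0.628) in WT hosts.

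**Figure D1:**
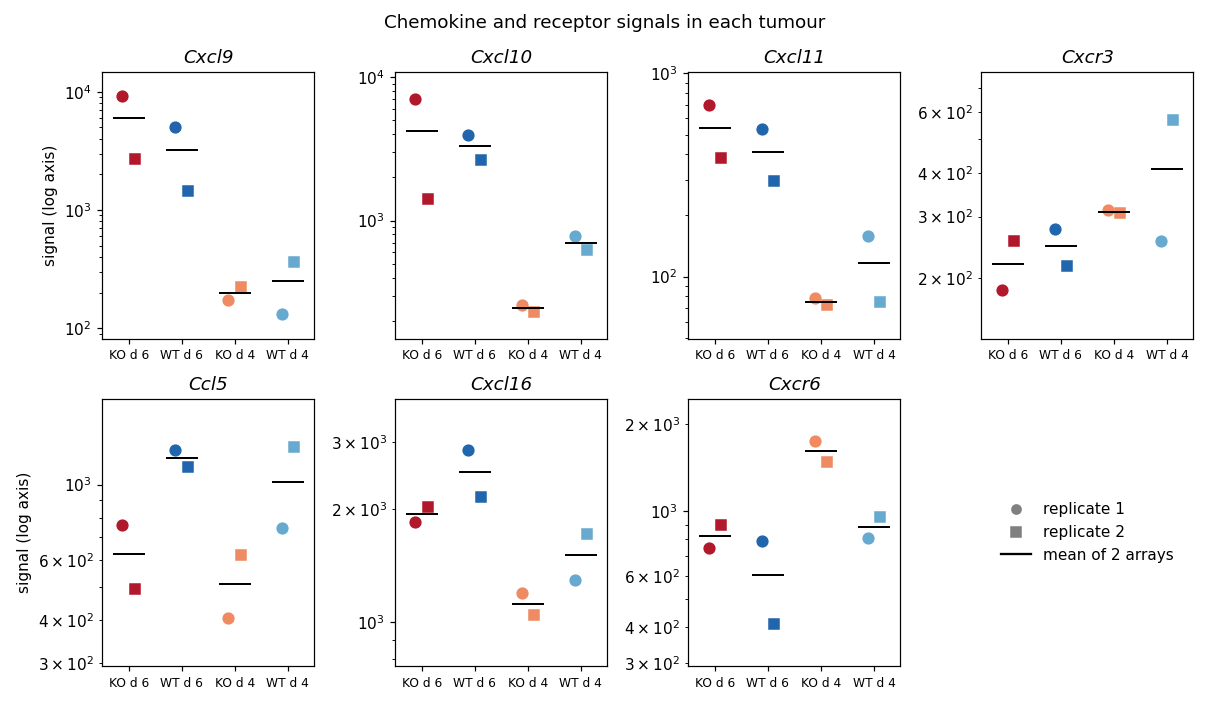
Signal of each gene (y axis, log scale, arbitrary units after scaling) in the 8 tumours, by group along the x axis; circles are replicate 1, squares replicate 2 and lines the mean of 2 arrays. Cxcl9, Cxcl10, Cxcl11 and Cxcl16 sit higher in all 4 day 6 arrays than in all 4 day 4 arrays, whereas Ccl5 sits lower in KO than in WT arrays of each day.

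The receptors did not rise. Cxcr3, the receptor of effector T cells and NK cells for these ligands, was at 184.4 and 254.7 in KO day 6 tumours and at 313.3 and 306.5 in KO day 4 tumours. WT tumours had 276.4 and 217.0 at day 6 and 255.2 and 567.6 at day 4. The days were apart in KO hosts and overlapped in WT hosts, with log2 fold changes of -0.48 ± 0.36 (SE, n = 2 each; limma, adjusted p = 0.433) and -0.61 ± 0.36 (adjusted p = 0.334 in WT hosts). In bulk tumour tissue, fewer cells of a type and less RNA per cell cannot be told apart.

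Cxcr6 was at 748.6 and 893.5 in KO day 6 tumours, against 1738.5 and 1477.5 in KO day 4 tumours. WT tumours had 793.2 and 411.2 at day 6 and 810.9 and 957.4 at day 4. The KO day 4 tumours stood above all the others. The log2 fold change between the days was -0.96 ± 0.28 (SE, n = 2 each; limma, adjusted p = 0.0776) in KO hosts and -0.61 ± 0.28 (adjusted p = 0.216) in WT hosts, neither of which passed the test. The second Cxcr6 probe set was at 358.9 and 495.3 in KO day 6 tumours and at 1039.4 and 1020.0 in KO day 4 tumours.

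Counted together, 4 of the 7 genes were called higher at day 6 in KO hosts, where 6.23% of the 12976 genes tested were called and 3.71% were called higher. In WT hosts 1 of 7 was called, higher at day 6, where 5.83% of all genes were called and 4.16% were called higher. The 2 groups did not overlap for 6 of the 7 genes in KO hosts, 4 higher and 2 lower, and for 5 of the 7 in WT hosts, 4 higher and 1 lower, against 61.4% and 53.6% of all genes in KO and WT hosts. The median log2 change of the 7 genes was 0.78 in KO hosts and 0.73 in WT hosts, and that of all genes was 0.00 in KO hosts and 0.01 in WT hosts. Although more genes were called in KO hosts, the difference between the hosts was itself not past the threshold. The change between the days was larger in KO than in WT hosts by 1.04 (95% interval -1.25 to 3.34) on the log2 scale for Cxcl9, 1.41 (-0.52 to 3.35) for Cxcl10 and 0.84 (-0.55 to 2.24) for Cxcl11, with adjusted p = 0.995 for each by limma, and 0.0% of all genes were called in this test.

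The calls rested on few arrays. The call of Cxcl9 in WT hosts was lost without WT day 6 replicate 1 (log2 2.62, adjusted p = 0.220), without WT day 4 replicate 1 (2.83, adjusted p = 0.0954) and without either KO day 4 array (3.51, adjusted p = 0.0726 and 0.0723). In KO hosts, no gene was called without either KO day 4 array, for instance Cxcl9 at log2 4.39 (adjusted p = 0.133) without replicate 1 and 4.73 (adjusted p = 0.180) without replicate 2. Cxcl10 was called alone without KO day 6 replicate 1 (2.45, adjusted p = 0.0181), and Cxcl16 lost its call without either array of KO day 6 (0.85, adjusted p = 0.126 without replicate 1, and 0.72, adjusted p = 0.195 without replicate 2) or of KO day 4 (adjusted p = 0.175 without replicate 1 and 0.278 without replicate 2). Other omissions added calls, namely Cxcr6 in KO hosts without either WT day 6 array (-0.96, adjusted p = 0.0325 and 0.0322), and in WT hosts Cxcl10 without either KO day 6 array (2.19, adjusted p = 0.0161 and 0.0142) and Cxcl16 without WT day 6 replicate 2 (0.93, adjusted p = 0.0471) or WT day 4 replicate 2 (0.93, adjusted p = 0.0404). With KO day 6 replicate 2 and WT day 4 replicate 2, the arrays of highest muscle signal, both left out, Cxcl9 was higher by 5.43 in KO hosts (adjusted p = 0.00672) and by 4.20 in WT hosts (adjusted p = 0.0176), and 3 of the 7 genes were called in each host.

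**Figure D2:**
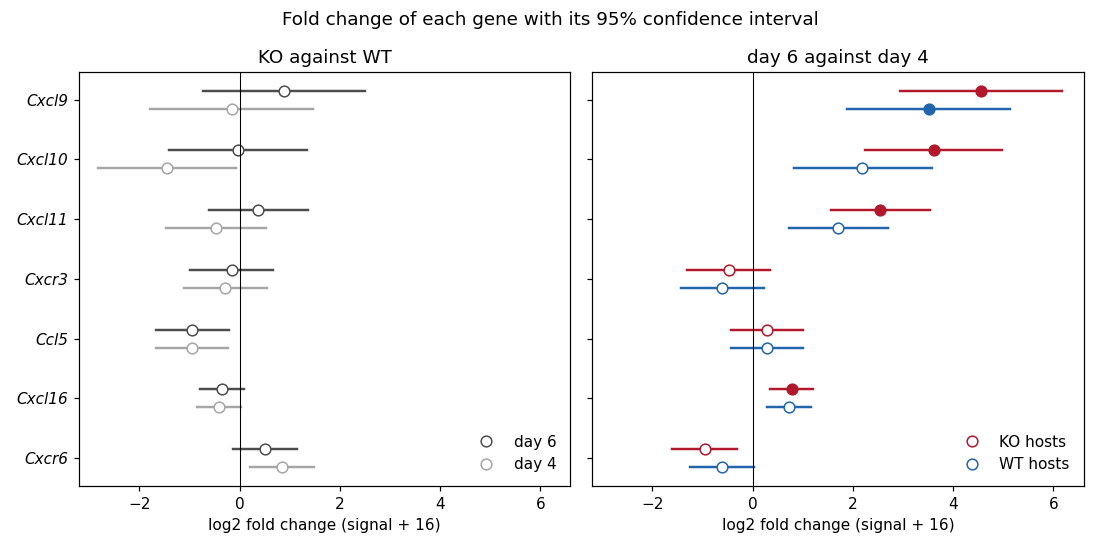
Log2 fold change of each gene (x axis, signal plus 16) with its 95% confidence interval, for KO against WT at each day (left) and day 6 against day 4 in each host (right); filled points were called at an adjusted p under 0.05. No point is filled for KO against WT, and 5 points are filled between the days, 4 of them in KO hosts.

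To ask whether the loss of TLR3, TLR7 and TLR9 in the host altered these chemokines, KO was compared with WT tumours at each day. No gene of the 7 passed the test at either day or over both days together. Ccl5 was lower in KO tumours at both days by about the same amount, Cxcl16 was slightly lower at both, and Cxcl10 was lower and Cxcr6 higher at day 4, as differences of the groups' values that did not pass the adjustment over all genes.

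Ccl5 averaged 627.9 ± 187 in KO day 6 tumours and 1196 ± 93.5 in WT day 6 tumours, and 512.9 ± 152 in KO day 4 tumours and 1020 ± 386 in WT day 4 tumours (SD, n = 2 each). The KO arrays were below the WT arrays of the same day without overlap. The log2 fold change was -0.94 ± 0.31 at day 6 (SE; limma, adjusted p = 0.760) and -0.95 ± 0.31 at day 4 (adjusted p = 0.583). Over both days it was -0.95 ± 0.22, with an unadjusted p of 0.00249 and an adjusted p of 0.341, and the exact permutation test of the genotype within days gave a two-sided p = 0.0556, the smallest its 36 arrangements allow. Leaving out 1 array, the difference ran between -1.24 and -0.64 at day 6, between -1.34 and -0.56 at day 4, the last without WT day 4 replicate 2, and between -1.14 and -0.75 over both days, and without both arrays of highest muscle signal it was -0.60 (adjusted p = 0.483).

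Cxcl16 had lower signals in KO than in WT tumours of the same day without overlap, by -0.36 ± 0.19 on the log2 scale at day 6 (SE, n = 2 each; limma, adjusted p = 0.826) and -0.41 ± 0.19 at day 4 (adjusted p = 0.727). Over both days the difference was -0.38 ± 0.13 (adjusted p = 0.493; exact permutation p = 0.0556). The second Cxcl16 probe set overlapped at day 6, at 1550.7 and 1635.3 in KO tumours and 2102.8 and 1430.8 in WT tumours, a log2 difference of -0.12. Leaving out 1 array, the difference at day 6 was -0.15 without WT day 6 replicate 1 and -0.56 without WT day 6 replicate 2, and at day 4 it was -0.21 without WT day 4 replicate 2. Cxcr6, its receptor, ran the other way. It was higher in KO tumours by 0.85 ± 0.28 at day 4 (SE, n = 2 each; limma, adjusted p = 0.583), where the arrays were apart, and by 0.50 ± 0.28 at day 6 (adjusted p = 0.834), where they overlapped. The day 6 value was 0.96 without WT day 6 replicate 1 and 0.04 without WT day 6 replicate 2.

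For Cxcl10, the log2 fold change of KO against WT was -1.45 ± 0.60 at day 4 (SE, n = 2 each; limma, adjusted p = 0.686) and -0.03 ± 0.60 at day 6 (adjusted p = 0.995). At day 6 it was 1.12 without KO day 6 replicate 2, which turned the direction, and -1.19 without KO day 6 replicate 1. Cxcl9 differed by 0.89 ± 0.71 at day 6 (adjusted p = 0.877) and -0.15 ± 0.71 at day 4 (adjusted p = 0.990), and Cxcl11 by 0.37 ± 0.43 at day 6 (adjusted p = 0.903) and -0.47 ± 0.43 at day 4 (adjusted p = 0.915), with overlapping arrays each time. The interval for Cxcl9 at day 6 ran between -0.73 and 2.51, which holds both a decrease and a several-fold increase. For Cxcr3 the differences were -0.16 ± 0.36 at day 6 and -0.29 ± 0.36 at day 4, again with overlap.

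In all, 0 of 7 genes were called for KO against WT by limma at day 6 and at day 4, where 0.0154% of all genes were called at each, and 0 of 7 over both days, where 0.0308% were called. At an unadjusted p under 0.05, 1 gene stood out at day 6 (6.35% of all genes), 3 at day 4 (7.11%) and 3 over both days (8.69%), and the methods' t-test passed none at day 6, Cxcl10 and Cxcr6 at day 4 and Ccl5 over both days before adjustment. The groups did not overlap for 2 of 7 genes at day 6, both lower in KO, against 37.0% of all genes, and for 4 of 7 at day 4, 3 of them lower, against 36.4%. Over both days they did not overlap for 2 of 7, against 8.49%.

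The ligands rose beside other genes of the IFN-γ response. Ifng itself was below the filter, at 396.1 and 177.8 in KO day 6 tumours and 31.5 and 9.5 in KO day 4 tumours, and at 177.5 and 106.5 in WT day 6 tumours and 25.4 and 32.9 in WT day 4 tumours. Its day 6 arrays were above its day 4 arrays in both hosts, with log2 differences in a fit without the filter of 3.02 in KO hosts (adjusted p = 0.0319) and 1.77 in WT hosts (adjusted p = 0.0993). Irf1, a transcription factor downstream of the IFN-γ receptor, rose in both, by 2.02 ± 0.24 in KO hosts (limma, adjusted p = 0.0110) and 1.24 ± 0.24 in WT hosts (adjusted p = 0.0280). Of all genes, 6.23% were called between the days in KO hosts and 5.83% in WT hosts. Of 12 tested genes of the receptor, its signalling and the inducers of IFN-γ, 2 rose and 1 fell in KO hosts and 1 rose in WT hosts. Beside Irf1, these were Socs1, the feedback inhibitor, which rose by 2.23 in KO hosts (adjusted p = 0.0107), and Ifngr1, the ligand-binding receptor chain, which fell by 0.60 on the log2 scale in KO hosts (adjusted p = 0.0478).

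Of 13 tested IFN-γ target genes other than chemokines, 12 were called higher at day 6 in KO hosts and 3 in WT hosts. Of all genes, 3.71% and 4.16% were called higher. In WT hosts all 13 had positive log2 changes, and 11 had an unadjusted p under 0.05 by limma. There 12 were apart and higher, while 53.6% of all genes were apart in either direction. Median log2 changes were 2.31 in KO hosts and 1.09 in WT hosts. For the difference between the hosts in this change, 0 of the 13 were called by limma, with 8 at an unadjusted p under 0.05. Gbp2, a guanylate-binding protein of cell-autonomous defence, was at 20582.9 and 9501.7 in KO day 6 tumours, against 902.4 and 628.1 in KO day 4 tumours, a log2 change of 4.19 (limma, adjusted p = 0.00496), and changed by 2.36 in WT hosts (adjusted p = 0.0210). Iigp1 and Igtp, immunity-related GTPases, rose by 3.99 (adjusted p = 0.00538) and 3.34 (adjusted p = 0.0132) in KO hosts, and Gbp6 rose by 3.87 (adjusted p = 0.0176). Between hosts at day 6, all 13 had positive log2 changes with a median of 0.80 and 6 were apart and higher, against 16.1% of all genes, while 0 were called by limma and 6 had an unadjusted p under 0.05, and at day 4 all 13 were negative with a median of -0.53 and 8 were apart and lower, against 16.8%. The median log2 level of these genes in KO day 6 tumours was 1.98 in replicate 1 and 0.62 in replicate 2, against 0.68 and 0.38 in WT day 6 tumours, relative to each gene's mean over the 8 arrays, so that KO replicate 2 lay below WT replicate 1. These chemokines and target genes share the arrays and the day contrast, and the counts describe them without a test of the list.

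Of 12 tested type I interferon targets, 2 rose at day 6 in KO hosts, where 3.71% of all genes were called higher. The median change of the 12 in KO hosts was 0.64. Rsad2, an antiviral enzyme, rose by 1.43 (limma, adjusted p = 0.0416) and Rtp4 by 1.34 (adjusted p = 0.0227). In WT hosts the median change was -0.43, and 0 genes passed the test by limma, with 3 at an unadjusted p under 0.05. At day 4, all 12 had lower signals in KO than in WT tumours, with a median log2 difference of -0.82, and 11 were apart, against 16.8% of all genes apart and lower. By limma 0 were called, with 7 at an unadjusted p under 0.05, and Cxcl10 stood lower in the same arrays. Rsad2, for example, was at 861.9 and 698.9 in KO day 4 tumours and 2948.4 and 2292.2 in WT day 4 tumours. At day 6 the median difference between hosts was 0.19.

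**Figure D3:**
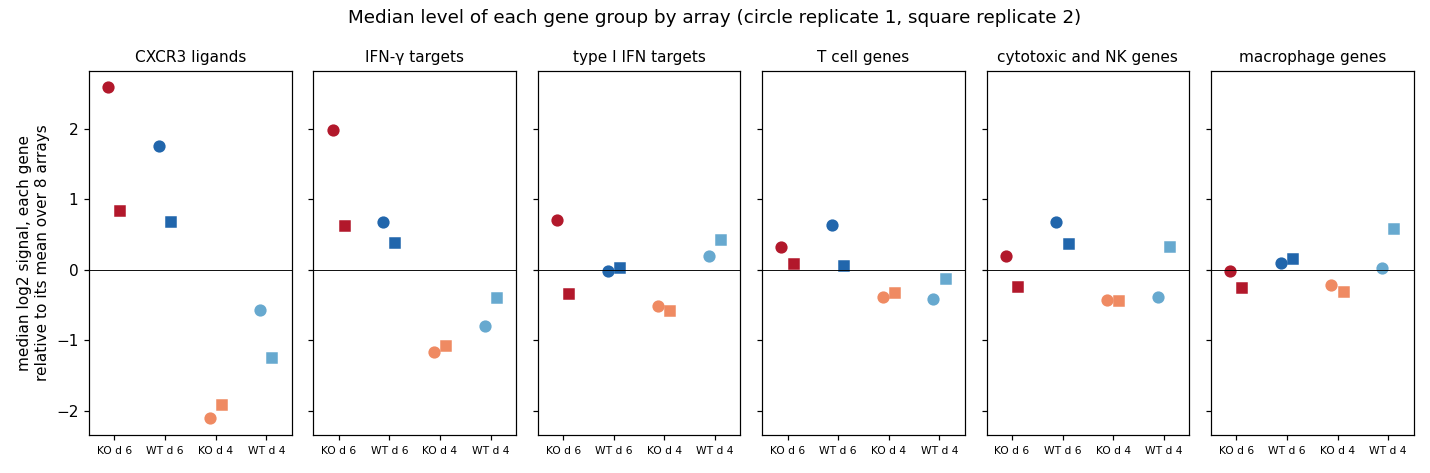
Median log2 signal of each gene group (y axis, each gene relative to its own mean over the 8 arrays) by array and group; circles are replicate 1 and squares replicate 2. The CXCR3 ligands span -2.11 to 2.59, the IFN-γ targets -1.17 to 1.98 and the T cell genes -0.41 to 0.63. Each of these has all day 6 arrays above all day 4 arrays, while the macrophage medians stay between -0.31 and 0.58.

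Across the 8 arrays, the 3 ligands tracked each other and Irf1. Pearson's r of the log2 signals was 0.91 for Cxcl9 with Cxcl10, 0.92 for Cxcl9 with Cxcl11 and 0.95 for Cxcl10 with Cxcl11, and 0.95, 0.88 and 0.92 for Irf1 with Cxcl9, Cxcl10 and Cxcl11. These values are descriptions over 8 arrays that share the difference between the days. Within the groups, r was 0.66, 0.37 and 0.75 for the same pairs of ligands. For Irf1 with Cxcl9, Cxcl10 and Cxcl11 it was 0.66, 0.95 and 0.55 within the groups. The genes with the most similar pattern to Cxcl9 were Actr1a (r = 0.995), Gps1 (0.992) and Psmb10 (0.987), the last an immunoproteasome subunit. For Cxcl10 they were Chil3 (0.976), Slamf8 (0.975) and Cd69 (0.967), and for Cxcl11 Fen1 (0.991), Srprb (0.982) and Clec7a (0.981). Ccl5 was most like Clec4a2 (0.972), Kap (0.965) and Fgr (0.965), Cxcl16 like Rnf180 (0.977), Paqr4 (0.973) and Cmtm7 (0.968), Cxcr3 like Peg3 (0.969), Slc38a6 (0.967) and Mks1 (0.960), and Cxcr6 like Mcc (0.941), Exoc2 (0.936) and Clca3a1 (0.920).

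**Figure D4:**
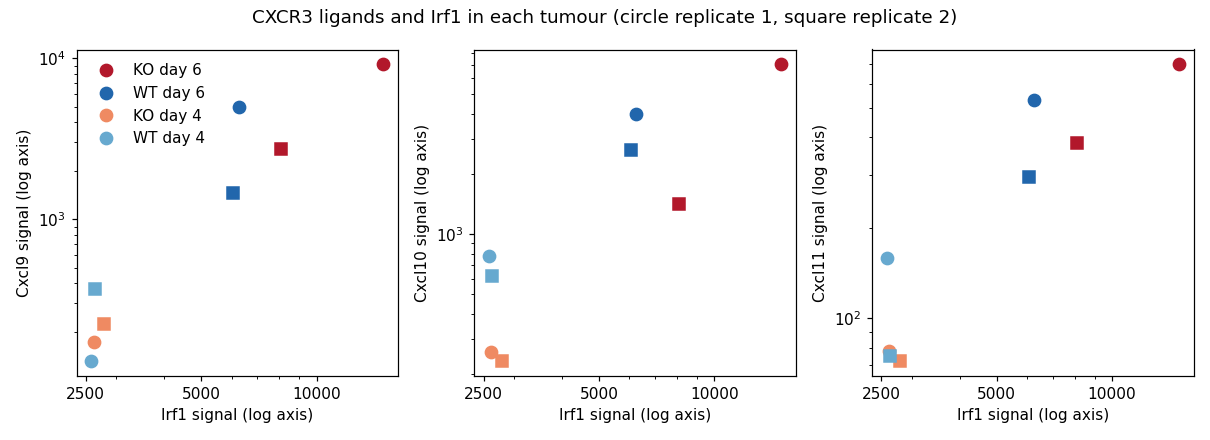
Signal of Cxcl9, Cxcl10 and Cxcl11 (y axes, log scale) against Irf1 (x axes, log scale) in each tumour; circles are replicate 1 and squares replicate 2. Irf1 lies between 2582.3 and 2788.3 at day 4 and between 6068.0 and 14942.2 at day 6, and KO day 6 replicate 1 is the upper right point of each panel.

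Other lymphocyte-attracting chemokines were also examined. Of 13 tested, 2 rose at day 6 in KO hosts and 1 in WT hosts, where 3.71% and 4.16% of all genes were called higher. Cx3cl1, the membrane-bound ligand of CX3CR1, rose in both hosts, by 1.21 in KO (limma, adjusted p = 0.0211) and 0.98 in WT (adjusted p = 0.0288). Ccl17, a CCR4 ligand of dendritic cells, rose by 2.21 in KO hosts (adjusted p = 0.0481) and had a log2 change of 1.84 in WT hosts (adjusted p = 0.0757). For KO against WT the median of the 13 was -0.64 at day 6 and -0.15 at day 4, with 0 called by limma at either day and 3 and 2 at an unadjusted p under 0.05.

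Among the receptors of Ccl5, Ccr1 was at 7009.0 and 5232.6 in KO day 6 tumours, against 2924.8 and 2770.0 in KO day 4 tumours, and rose by 1.09 ± 0.16 (limma, adjusted p = 0.0183). In WT tumours Ccr1 was at 5437.1 and 4478.5 at day 6 and 4222.4 and 4215.0 at day 4, a log2 change of 0.23 (adjusted p = 0.420). Ccr3 was below the filter with signals of 4.1 to 52.5. Of 6 other receptors of lymphocyte traffic tested, 5 for chemokines and S1pr1 for a lipid, Ccr1 in KO hosts was the 1 that passed between the days. Of all genes, 6.23% passed in KO hosts and 5.83% in WT hosts.

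Genes that clip, scavenge or shed chemokines were also examined. Dpp4, the peptidase that trims the amino end of CXCR3 ligands, fell in both hosts. It was at 381.1 and 309.3 in KO day 6 tumours, against 1834.9 and 2239.3 in KO day 4 tumours, and at 344.9 and 302.6 in WT day 6 tumours, against 1375.6 and 2686.0 in WT day 4 tumours. The days were far apart, with log2 changes of -2.51 in KO hosts (limma, adjusted p = 0.0107) and -2.52 in WT hosts (adjusted p = 0.0132). Ackr3, a scavenging receptor that binds CXCL11 and CXCL12, fell by 0.98 on the log2 scale in KO hosts (adjusted p = 0.0443) and had a log2 change of -0.81 in WT hosts (adjusted p = 0.0697). Of 7 such genes, 2 fell in KO hosts and 1 in WT hosts, against 6.23% and 5.83% of all genes called in either direction.

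Markers of the cells that follow these chemokines had positive median log2 changes between the days. Of 8 tested T cell genes, 7 had positive changes in each host, with medians of 0.45 in KO hosts and 0.47 in WT hosts. All genes had medians of 0.00 and 0.01 and upper quartiles of 0.26 and 0.27. The days were apart for 4 higher and 1 lower T cell gene in KO hosts and for 5 higher in WT hosts. Of all genes, 61.4% and 53.6% were apart in either direction. Icos, a costimulatory receptor of activated T cells, was the 1 called, and rose in KO hosts by 1.43 (limma, adjusted p = 0.0407). The 8 tested cytotoxic and NK cell genes had medians of 0.47 in KO hosts and 0.49 in WT hosts. In KO hosts 6 had positive and 2 negative changes, and the days were apart for 5 higher and 2 lower. The lower genes were Klrd1 (log2 change -0.74; limma, adjusted p = 0.136) and Eomes (-0.3, adjusted p = 0.563). In WT hosts all 8 had positive changes, and 4 were apart and higher. Of these 8, Gzmb and Gzma were called in KO hosts and rose by 3.54 (limma, adjusted p = 0.00206) and 1.94 (adjusted p = 0.0349). In WT hosts Gzmb was the 1 called and rose by 2.40 (adjusted p = 0.0132). Beside these calls and that of Icos, 3.71% of all genes were called higher in KO hosts and 4.16% in WT hosts. Gzmb, a granzyme of killer cells, was at 1739.6 and 1290.2 in KO day 6 tumours and 143.8 and 90.0 in KO day 4 tumours. For KO against WT, these cytotoxic and NK genes had medians of -0.59 at day 6 and -0.53 at day 4, with 5 of 8 apart and lower at each day (20.9% and 16.8% of all genes) and 0 called by limma (2 and 3 at an unadjusted p under 0.05), beside the lower Ccl5.

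Macrophage, dendritic, neutrophil, B cell, endothelial and epithelial genes were set beside the chemokines as measures of tissue make-up, and their part in the chemokine values was not tested. Summed over 9 macrophage genes, the signal was 60950 to 63620 in KO day 6 tumours and 66360 to 67310 in WT day 6 tumours, and 49700 to 56160 in KO day 4 tumours and 63030 to 83370 in WT day 4 tumours. At day 4, 8 of 9 macrophage genes had negative log2 differences for KO against WT with a median of -0.49, and 7 were apart and lower, against 16.8% of all genes. Of these 9 genes, 0 were called by limma and 6 had an unadjusted p under 0.05. The 3 tested B cell genes were also apart and lower at day 4, with a median of -0.86. Between the days in KO hosts, Fcgr1 rose by 0.85 and Mertk fell by 0.57 on the log2 scale (limma, adjusted p = 0.0470 and 0.0457). Cd209a, a lectin of dendritic cells, was at 52.1 and 15.1 in KO day 6 tumours and 965.3 and 770.9 in WT day 6 tumours, and was the 1 marker called between hosts (log2 -4.26, adjusted p = 0.0228). Endothelial Cdh5 and Pecam1 rose in WT hosts by 1.59 (adjusted p = 0.0179) and 0.94 (adjusted p = 0.0368), and of the neutrophil genes Cxcr2 had a log2 change of 2.42 (adjusted p = 0.144) and Mmp9 one of 1.92 (adjusted p = 0.0889) in KO hosts. Of the B cell genes, Pax5 had a log2 change of -1.56 between the days in WT hosts (adjusted p = 0.0775). Among 8 epithelial genes, Krt8 rose by 0.55 in KO hosts (adjusted p = 0.0408), and Cdh1 rose by 2.50 in KO hosts (adjusted p = 0.00733) and 2.65 in WT hosts (adjusted p = 0.00887). The 8 did not move together. In WT hosts 3 had positive and 5 negative changes, with a median of -0.02. In KO hosts 7 had positive and 1 negative changes, with a median of 0.57.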

How the data were processed

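Total RNA of MOPC tumours was hybridised to Affymetrix MG-430_2.0 arrays, and the deposited values were signal intensity per probe set, made by the authors with MAS5 (version not given) on a linear scale with a 2% trimmed mean of 1000 on each array. MAS5 scales each array by 1 factor, so that a few bright genes can shift the rest. Of 45101 probe sets, 34958 named 1 gene in the platform annotation, 932 several and 9211 none, and those naming 1 gene gave 18194 genes by the probe set of highest mean. Signals plus a pseudocount of 16 were put on a log2 scale here, which understates changes of low genes, and 12976 genes above the 40th percentile of the mean log2 values of all probe sets (a signal of 78.6) were tested with limma 3.58.1 (R 4.3.3) in a model of 4 groups of 2 arrays with 4 residual degrees of freedom, a mean-variance trend and Benjamini-Hochberg adjustment. Genes below the filter were read from a fit without it. Calls used an adjusted p under 0.05. The study's methods name a t-test, which was run as an alternative on the same values. The exact permutation of 2 arrays against 2 cannot go below p = 0.333. The number of arrays limits the precision. The 7 genes, the gene lists and the tests were chosen with earlier results of these data known. Named were the 7 genes, Ifng, Irf1, Ccr1 and Ccr3, per list up to 4 called genes whose groups did not overlap, and per gene the 3 of highest correlation, with checks of the targeted, sex-linked, muscle and skin genes. Promoter sequences were taken from RefSeq (GRCm38.p6). Alternatives changed the scaling, pseudocount, filter, probe set choice, trend, samples and replicate block. The scripts were tested on simulated data. Some genes are not reported here.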

Additional observations from a re-analysis of the deposited data

How the results depend on the processing

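The 7 genes were examined in 6 comparisons under 22 alternatives, 2 of which (a crossed pairing of WT replicates and the joint omission of KO day 6 replicate 2 and WT day 4 replicate 2) were chosen after seeing the data. Of 856 values, 763 kept their direction and side of the threshold, 44 changed sign, 34 lost a call and 15 gained one, and the cause was not tested. For KO against WT at day 6, at day 4 and over both days, and for the difference of these effects, 0 genes were called under every alternative run. For day 6 against day 4 in WT hosts, where 1 gene was called, 4 were called after median centring, 3 without the arrays of highest muscle signal, 2 with a filter at the 60th percentile and 0 without the variance trend, with the compared groups alone or by the methods' t-test. Leaving out 1 array gave 0 to 2. In KO hosts, where 4 were called, 2 were called with the mean of all probe sets and 0 without the trend or by the methods' t-test, and leaving out 1 array gave 0 to 5.

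Replicate numbers were shared by the groups, but deviations of same-numbered arrays correlated between -0.12 and 0.27, so that the numbers were not taken as pairs. With the replicate block, 2 genes were called in WT hosts and 3 in KO hosts, and with the crossed block 2 in WT hosts. Median centring moved the median log2 change of all genes between the days to 0.17 in KO hosts and 0.19 in WT hosts, and 84.3% and 91.0% of calls were then higher at day 6, against 59.6% and 71.4% before, in KO and WT hosts.

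For KO against WT, Cxcl10 at day 6 was 0.03 after median centring, Cxcl9 at day 4 was 0.15 with the mean of all probe sets, and Cxcl11 over both days was 0.01 with quantile normalization, 0.02 after median centring and 0.00 with a pseudocount of 64. Without the arrays of highest muscle signal, Cxcl10 at day 6 was 1.12, Cxcl9 at day 4 was 0.53 and Cxcr3 at day 4 was 0.26. The difference of the KO effects was then -0.65 for Cxcr3, -0.08 for Ccl5 and -0.21 for Cxcl16, and for Ccl5 it was -0.01 after median centring and 0.00 with a pseudocount of 64. Leaving out 1 array, KO against WT at day 6 ran between 0.00 and 1.78 for Cxcl9, -1.19 and 1.12 for Cxcl10, -0.04 and 0.79 for Cxcl11, and -0.38 and 0.05 for Cxcr3. At day 4 it ran between -0.84 and 0.53 for Cxcl9, -0.94 and 0.00 for Cxcl11, and -0.84 and 0.26 for Cxcr3. Over both days it ran between -0.08 and 0.81 for Cxcl9, -0.28 and 0.19 for Cxcl11, and -0.50 and 0.05 for Cxcr3. For day 6 against day 4, Ccl5 ran between -0.02 and 0.58 in KO hosts and -0.11 and 0.66 in WT hosts. The difference of the KO effects ran between -0.43 and 0.68 for Cxcr3, -0.38 and 0.40 for Ccl5, -0.15 and 0.26 for Cxcl16, and -0.81 and 0.11 for Cxcr6. With 2 arrays a group, and 1 in a group where an array was left out, a lone array was assumed to vary like the others.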
